A study of Homo sapiens with 6 samples.

Results

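The genes described here are 10 interferon-stimulated genes measured in xenograft tumors of a human pancreatic cancer cell line. They were the array features whose gene name equalled IFIT1, IFIT2, IFIT3, OAS1, OAS2, OAS3, MX1, ISG15, IFI6 or IFI27, and every probe of a gene was kept. These 10 genes had 14 probes, out of 36337 gene names and 50599 probes on the array. The tumors grew from BxPC-3 cells, a single human pancreatic adenocarcinoma line, injected under the skin of female BALB/c nu/nu mice that were 8 to 10 weeks of age at the start. Nude mice lack T cells but keep their natural killer cells and macrophages, and the stroma of such a tumor is of mouse origin. The DFX group (n = 3) was given 200 mg/kg of deferasirox, an oral iron chelator, by gavage every second day over 21 days. The control group (n = 3) was given the vehicle alone, and both groups carried the same cell line and host strain. Each tumor was hybridised to its own one-color array.

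Interferons are secreted proteins that cells release on sensing viral or misplaced nucleic acid. Type I and type III interferons bind receptors on neighbouring cells, and the receptor-bound kinases JAK1 and TYK2 then phosphorylate transcription factors, STAT2 among them, which join IRF9 and bind the interferon-stimulated response element (ISRE) in the promoters of these genes. The IFIT proteins bind viral RNA, the OAS enzymes make the oligoadenylates that switch on the ribonuclease RNase L, MX1 is an antiviral GTPase, ISG15 is a ubiquitin-like modifier, and IFI6 and IFI27 are small hydrophobic membrane proteins. Many carcinoma lines express a part of this set without added interferon.

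The sequences below are those of 3 probes, shown because each result rests on what these 60-base oligonucleotides captured from labelled cRNA. They are the OAS1 probe and the dimmer of the 2 probes for IFIT2 and for OAS3, as the array files give them, 5′ to 3′, in lower case with no part singled out. Positions are on hg19.
OAS1 A_23_P64828 (chr12:113354461-113354520, plus strand): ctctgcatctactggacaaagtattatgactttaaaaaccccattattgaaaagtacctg
IFIT2 A_24_P304071 (chr10:91066613-91066672, plus strand): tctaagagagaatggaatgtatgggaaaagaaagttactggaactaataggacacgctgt
OAS3 A_33_P3402489 (chr12:113405902-113405961, plus strand): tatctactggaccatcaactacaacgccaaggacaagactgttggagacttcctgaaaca

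Promoters were searched as well, because the members varied together across the tumors. RefSeq sequence on GRCh38.p14, from 250 bases before to 50 bases after each gene start, was found for 8 of the 10 members, without IFIT2 and OAS2. The ISRE-like motif was GAAA, any 2 bases and GAAA on either strand, so that it reads TTTC, any 2 bases and TTTC on the other strand. The reference holds up to 3 promoters for a member, and a gene was counted where any of its promoters had a match. The motif was present in 7 of these 8 members and in 4.38% of 27305 genes counted the same way, or 3.57% of 35116 single promoters. At least 2 matches in 1 promoter were present in 6 of the 8 members and in 0.311% of the genes. OAS1 had no match in its window. The GAS-like motif, TTC with any 3 bases and GAA on either strand, was present in 3 of the 8 members (OAS1, MX1 and IFI27) and in 9.38% of the genes (7.66% of single promoters). Some matches of the ISRE-like motif overlap each other. The windows below show the matches before the start in the promoter of each gene that has the most of them, with the motif in capitals and up to 15 bases on each side, 5′ to 3′ along the strand of the gene, and a match is a description of the letters only.
IFIT1 (chr10:89392492-89392544, plus strand): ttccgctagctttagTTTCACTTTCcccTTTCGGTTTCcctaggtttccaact
IFIT3 (chr10:89327826-89327899, plus strand): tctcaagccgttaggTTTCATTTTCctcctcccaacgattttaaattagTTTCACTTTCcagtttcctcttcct
OAS3 (chr12:112938316-112938355, plus strand): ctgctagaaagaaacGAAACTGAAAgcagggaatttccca
OAS3 (chr12:112938447-112938473, plus strand): cggagagccgggcggGAAAACGAAAcc
MX1 (chr21:41431839-41431878, plus strand): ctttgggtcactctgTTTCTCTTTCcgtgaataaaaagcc
ISG15 (chr1:1013369-1013414, plus strand): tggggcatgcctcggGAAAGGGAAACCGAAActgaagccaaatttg
IFI6 (chr1:27672324-27672363, minus strand): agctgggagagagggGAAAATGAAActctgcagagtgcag
IFI6 (chr1:27672261-27672322, minus strand): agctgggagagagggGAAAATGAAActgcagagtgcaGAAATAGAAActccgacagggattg
IFI27 (chr14:94110613-94110665, plus strand): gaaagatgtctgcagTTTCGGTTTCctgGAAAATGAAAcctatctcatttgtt
The ISG15 window holds 2 overlapping matches between 128 and 83 bases before the start, and the IFIT1 window holds 2 separate matches between 131 and 79 bases before it. IFI27 has 1 match on each strand within 53 bases. OAS3 has 1 match in each of its windows, and IFI6 has 3 matches over its 2 adjoining windows.

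The 6 arrays lay on 1 slide and were read in 1 scan, with the control tumors in the first row of the slide and the DFX tumors in the second row, so that row and treatment cannot be told apart. Between 50.3% and 56.5% of probes were well above background on each array, and no spot was saturated. Log2 intensities of pairs of arrays correlated at 0.980 to 0.990. Control replicate 3 stood apart, being the highest of the 6 tumors in 25.3% of all tested probes and the lowest in 20.2%, where the other tumors were the highest in 13.1% to 16.8% and the lowest in 12.2% to 20.7%. No probe of 31807 passed an adjusted p under 0.05 in limma (0% of all probes), while 2675 passed at an unadjusted p under 0.05, the threshold used below for a call. Because each group has 3 tumors, an exact permutation test could not go below p = 0.1. In a tumor sample, fewer cells of a type and less RNA per cell cannot be told apart.

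Of the 14 member probes, 13 passed the filter on low values, which asked for detection above background on every array, and these 13 represent 9 genes. Levels are log2 intensities normalized between arrays and differ between probes for reasons other than abundance, so they were compared only between tumors. MX1 was the member that did not pass. Its single probe was not well above background in any tumor, with log2 intensities of 1.93, 1.95 and 1.95 in the controls and 1.93, 1.94 and 1.95 in the DFX tumors. No fold is given for MX1.

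The IFIT family members are RNA-binding proteins encoded side by side on chromosome 10. IFIT1 was at 10.43, 10.52 and 11.80 in control replicates 1, 2 and 3 and at 10.82, 10.65 and 11.09 in the DFX tumors. The highest tumor was thus control replicate 3, the lowest were the other controls, and all 3 DFX tumors lay inside the control range. The mean log2 difference of DFX from control was -0.07 for IFIT1, with a 95% interval from -1.01 to 0.88, and it did not pass (adjusted p = 0.972 in limma). IFIT2 had 2 probes. Its brighter probe read 10.53, 10.48 and 11.02 in the controls and 10.49, 10.22 and 10.38 in the DFX tumors. Here 2 of the DFX tumors fell below every control, and the groups overlapped through the DFX tumor at 10.49. The difference was -0.31 (95% interval -0.75 to 0.13), which had the lowest adjusted p of any member, 0.672 in limma. The dimmer IFIT2 probe, printed above, read 7.49, 7.35 and 8.23 in the controls and 7.84, 7.51 and 7.64 in the DFX tumors, and its difference was -0.03. IFIT3, which stabilises IFIT1 on RNA, was at 9.71, 9.87 and 10.49 in the control tumors. The 3 DFX tumors had nearly the same IFIT3 level, at 9.88, 9.89 and 9.88, all inside the control range. Their SD was 0.0053, against 0.41 among the controls.

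The OAS enzymes sense double-stranded RNA and lie together on chromosome 12. OAS1 was at 8.48, 8.50 and 8.97 in the control tumors and at 8.49, 8.45 and 8.57 in the DFX tumors. Only control replicate 3 departed from a common level in OAS1, being 1.39-fold above the mean of the other controls, and the difference of DFX from control was -0.15 (95% interval -0.54 to 0.24). OAS2 was measured by 3 probes designed on 3 different transcripts. The probe for NM_001032731 read 8.97, 9.07 and 9.60 in the controls and 9.33, 9.22 and 9.21 in the DFX tumors. The probe for NM_016817 read 7.79, 8.07 and 8.99 in the controls and 8.16, 8.39 and 8.16 in the DFX tumors. For NM_002535 the values were 7.89, 8.11 and 8.70 against 7.92, 7.90 and 7.95. All 3 OAS2 probes placed control replicate 1 lowest and control replicate 3 highest. Their log2 differences of DFX from control were 0.04, -0.05 and -0.31 in the same order, with standard errors of 0.18, 0.31 and 0.22, and the 95% interval of each included 0. OAS3 was at 8.19, 8.30 and 8.72 in the control tumors and at 8.68, 8.41 and 8.60 in the DFX tumors by its brighter probe. Every DFX tumor was above control replicates 1 and 2 and below control replicate 3, and the difference was 0.16 (95% interval -0.26 to 0.58). The dimmer OAS3 probe was well above background on 1 control array, that of replicate 3, and on none of the DFX arrays, and no fold is given for it, which leaves 12 member probes with a log2 difference.

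ISG15, which is attached to other proteins as ubiquitin is, was at 13.79, 13.90 and 14.67 in the control tumors. In the DFX tumors ISG15 was at 13.98, 14.02 and 13.97. The DFX tumors sat together just above control replicates 1 and 2, with an SD of 0.03 against 0.48 among the controls. The difference was -0.13 for ISG15 (95% interval -0.72 to 0.46, adjusted p = 0.895 in limma). Among members measured well above background throughout, IFI6 showed the widest spread. It was at 11.17, 11.21 and 12.78 in control replicates 1, 2 and 3 and at 11.83, 12.02 and 12.21 in the DFX tumors. The mean was 11.72 ± 0.92 (SD, n = 3) in the control group and 12.02 ± 0.19 (SD, n = 3) in the DFX group, a log2 difference of 0.30 with a standard error of 0.45. IFI27, in contrast, varied little, at 15.71, 15.71 and 16.09 in the controls and 15.91, 15.68 and 16.02 in the DFX tumors. Its difference was 0.03 with a 95% interval from -0.36 to 0.42.

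**Figure D1:**
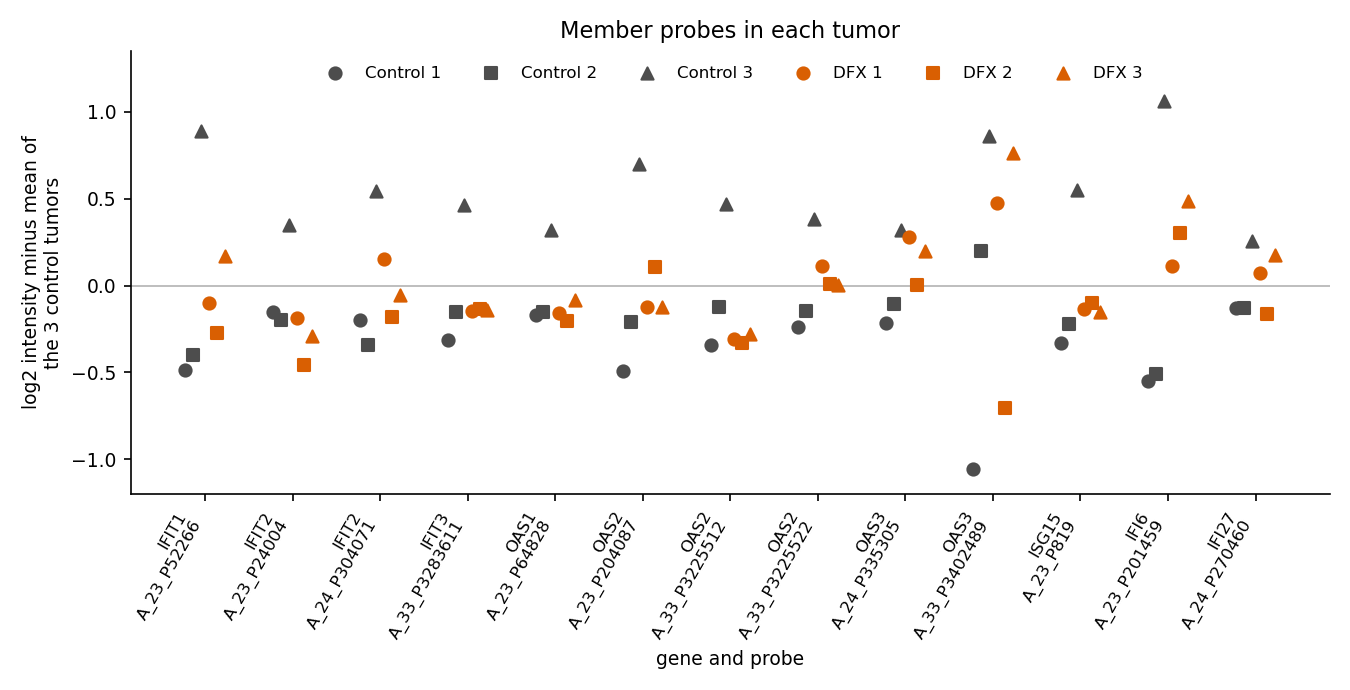
Normalized log2 intensity of the 13 tested member probes in each tumor, drawn as the difference from the mean of the 3 control tumors (vertical axis, log2), with gray symbols for control and orange symbols for DFX tumors. Control 3, the gray triangle, is the highest symbol at all 13 probes, and the DFX tumors mostly lie between it and the other controls. The OAS3 probe A_33_P3402489 was well above background on 1 of the 6 arrays.

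No member passed the test between DFX and control tumors. Of the 13 tested probes, 0 passed an unadjusted limma p under 0.05, beside 8.41% of all tested probes, and 0 passed after Benjamini-Hochberg adjustment. None of the 13 probes separated the groups, whereas in 15.5% of all tested probes the groups did not overlap. Taking the brightest probe of each gene, 4 members were higher and 5 were lower in DFX tumors, with a median log2 difference of -0.07, and the median over all tested genes was -0.01. The 95% intervals leave room for sizeable changes in some members: from 0.58-fold to 2.63-fold for IFI6 and from 0.50-fold to 1.84-fold for IFIT1. They were narrower for IFI27, from 0.78-fold to 1.34-fold, and for OAS1, from 0.69-fold to 1.18-fold. A miss of the threshold therefore does not show equal levels.

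**Figure D2:**
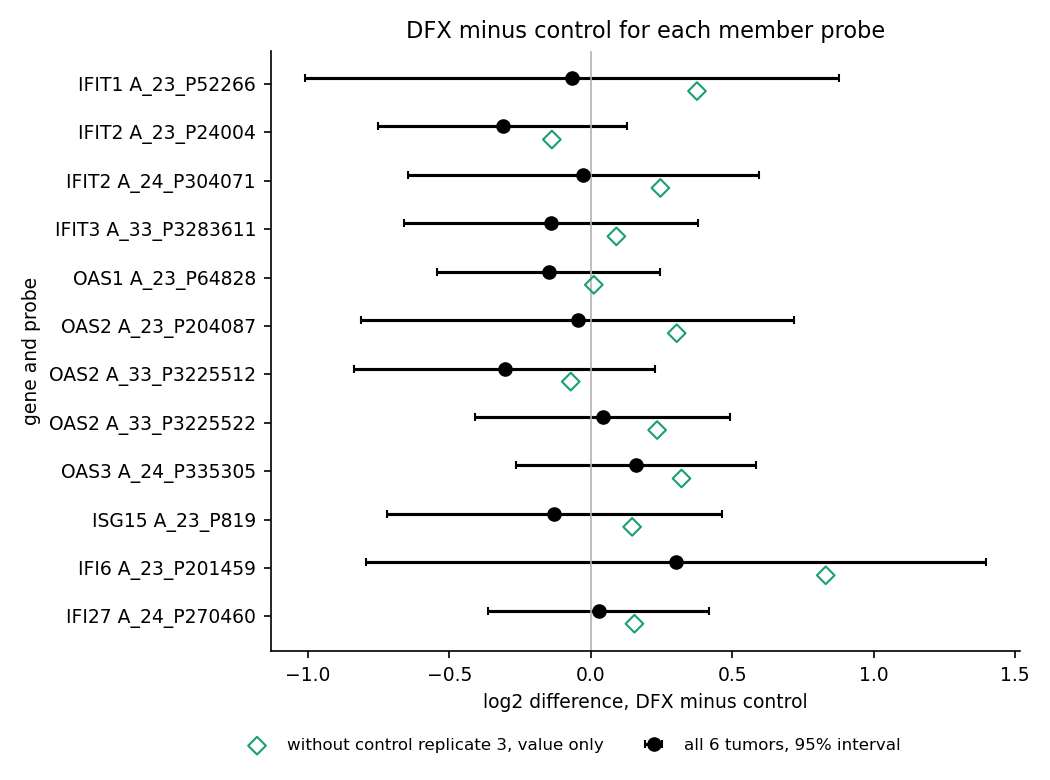
Log2 difference of DFX minus control (horizontal axis) for the 12 member probes given a difference, with black points and 95% intervals from limma over all 6 tumors, and open green diamonds for the value without control replicate 3. Every interval includes 0, and 10 of the 12 diamonds lie above 0.

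The member probes varied within the control group more than between the groups. Control replicate 3 had the highest level of the 6 tumors in all 13 tested probes, against 25.3% of all tested probes. The lowest tumor was control replicate 1 in 9 probes, control replicate 2 in 1 and DFX replicate 2 in 3. Control replicate 3 exceeded the mean of the other 2 controls by 0.38 (IFI27) to 1.59 (IFI6) on the log2 scale, that is 1.30-fold to 3.01-fold, with a median of 0.70 where the median over all probes was 0.02. IFIT1 was 2.51-fold, ISG15 1.77-fold and IFIT3 1.62-fold above the other controls in that tumor. An excess over 0.4 was found in 12 of the 13 member probes and in 14.2% of all probes. The median SD of the member probes was 0.42 among controls and 0.14 among DFX tumors, and over all probes these medians were 0.20 and 0.18. The control SD was the larger in all 13 member probes and in 53.7% of all probes. With the 9 tested members averaged as differences from the control mean, control replicates 1, 2 and 3 stood at -0.29, -0.22 and 0.51, and DFX replicates 1, 2 and 3 at -0.02, -0.11 and 0.04. The excess of control replicate 3 was found under every scaling and background correction run. That tumor was the highest tumor in 13 of 13 probes with median scaling, with the raw mean signal and with the authors' processed values, and in 12 of 13 with 75th percentile scaling and with normexp background correction.

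The comparison was also fitted with each of the 6 tumors left out in turn, and the direction of the members depended on which tumor was left out. With all 6 tumors, 4 of the 12 probes were higher in DFX tumors and the member median was -0.07. Without control replicate 1 the median was -0.23 and 2 of 12 probes were higher, and without control replicate 2 it was -0.22, again with 2 of 12 higher. Without control replicate 3 the median was 0.15 and 10 of 12 probes were higher. Leaving out DFX replicates 1, 2 and 3 gave medians of -0.05, 0.03 and -0.12, with 4, 6 and 3 of the 12 probes higher. IFI6 was the member that passed in any of these fits, without control replicate 3, with a log2 difference of 0.83 and a standard error of 0.15, but not after adjustment (adjusted p = 0.510 in limma), and 7.89% of all probes passed in the same fit. In that fit IFIT1 was at 0.38, OAS3 at 0.32 and ISG15 at 0.15, while IFIT2 by its brighter probe, at -0.14, and OAS2 by the NM_002535 probe, at -0.07, stayed below 0. All 3 DFX tumors were above both remaining controls in 8 of the 13 tested probes, namely IFI6, IFIT1, the dimmer IFIT2 probe, IFIT3, ISG15, 2 probes of OAS2 and the brighter OAS3 probe. The same held for 11.6% of all probes and for 9.31% of the probes that were highest in control replicate 3. Since that tumor was singled out after its values were seen, this count is a description.

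The members varied together. Over the 36 pairs of the 9 tested genes, Pearson correlation across the 6 tumors had a median of 0.82, with a range of 0.43 to 0.99, and 22 pairs were above 0.8. The closest pair was ISG15 and IFIT3, and the least close pair was IFIT2 and OAS3. Without control replicate 3 the median of the 36 pairs was 0.62. These correlations are given as a description, since 6 tumors share 1 slide and 1 normalization.

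The pathway upstream of the members was measured on the same arrays. Of 21 interferon ligand genes listed, 17 were on the array and 3 passed the filter, IFNA4, IFNL1 and IFNL2, while the other 14, including IFNB1 and IFNG, had no probe well above background in any tumor. For IFNL1, a type III interferon, the controls read 4.43, 3.81 and 5.65, and after DFX the levels were 4.98, 4.14 and 4.19. It was highest in control replicate 3 as the members were, though well above background on 3 of the 6 arrays. IFNL2, which shares nearly all its sequence with IFNL3, was at 6.91, 6.69 and 6.13 against 6.24, 6.16 and 5.98, a different order of the tumors. The IFNA4 probe may also capture other interferon alpha genes. No ligand passed in either direction, where 4.36% of all genes had a probe called higher and 6.3% a probe called lower.

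All 12 receptors and signal transducers were tested and 0 were called in either direction, with 6 of the 12 highest in control replicate 3. IRF9, the DNA-binding partner of STAT2, was at 11.75, 11.74 and 12.13 in the controls and 11.69, 11.77 and 11.95 in the DFX tumors. STAT2 did not follow the members, at 12.90, 12.89 and 12.82 against 12.78, 12.60 and 13.00. Of the 15 sensors and adaptors, 13 were tested, 0 were called and 3 were highest in control replicate 3. IRF7, which amplifies interferon production, was not well above background in any tumor. Of the 6 negative regulators, 0 were called. USP18, the protease that removes ISG15 from proteins and also restrains the type I receptor, was at 7.97, 7.83 and 9.49 in the control tumors and at 8.31, 8.41 and 8.29 in the DFX tumors, with the DFX tumors between control replicate 3 and the other controls, as for ISG15. The USP18 probe may also capture its near copy USP41.

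Of 59 other interferon-stimulated genes, 56 were tested, and 4 were called higher and 1 lower in DFX tumors, beside 4.36% and 6.3% of all tested genes, so that both counts lie near the background. Their median log2 difference was 0.04, with 34 above 0 and 22 below. ISG20, an RNA exonuclease, was at 13.78, 13.86 and 13.66 in the controls and 14.22, 14.58 and 14.30 in the DFX tumors, so that the groups did not overlap. The difference of 0.60 for ISG20 had a standard error of 0.13 (adjusted p = 0.513 in limma). DTX3L, a ubiquitin ligase that acts with PARP9, was higher by 0.31. TRIM22 was higher by 0.41 and TRIM14 by 0.35 and 0.39 with its 2 probes, both being members of the tripartite motif family. SAMD9, an antiviral factor, was at 8.39, 8.16 and 8.28 in the control tumors and fell by 0.39. None of these passed after adjustment.

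In 25 of the 56 other interferon-stimulated genes control replicate 3 was the highest tumor, where 25.2% of all tested genes were. IFI44L was at 10.38, 10.48 and 11.72 in the controls and 10.91, 10.77 and 11.22 in the DFX tumors. IFI44 read 11.55, 11.35 and 12.32 in the controls and 11.87, 11.73 and 12.28 in the DFX tumors. These 2 neighbouring genes put the DFX tumors above control replicates 1 and 2, as IFI6 did. RSAD2, the antiviral enzyme viperin, was at 5.92, 6.73 and 6.99 against 6.44, 6.56 and 6.78. OASL, a relative of the OAS enzymes without their activity, was at 11.76, 11.84 and 12.28 against 12.03, 12.19 and 11.84. MX2, the paralog of MX1, was at 11.77, 11.75 and 11.91 in the controls and 11.85, 11.84 and 11.85 in the DFX tumors, well above background on all 6 arrays. The membrane proteins IFITM1 and IFITM3 were highest in DFX replicate 2, and their differences of 0.43 and 0.19 did not pass. The chemokine CXCL11, chosen after its values were seen, was at 6.63, 6.79 and 8.63 in the control tumors and at between 6.93 and 7.0 in the DFX tumors.

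**Figure D3:**
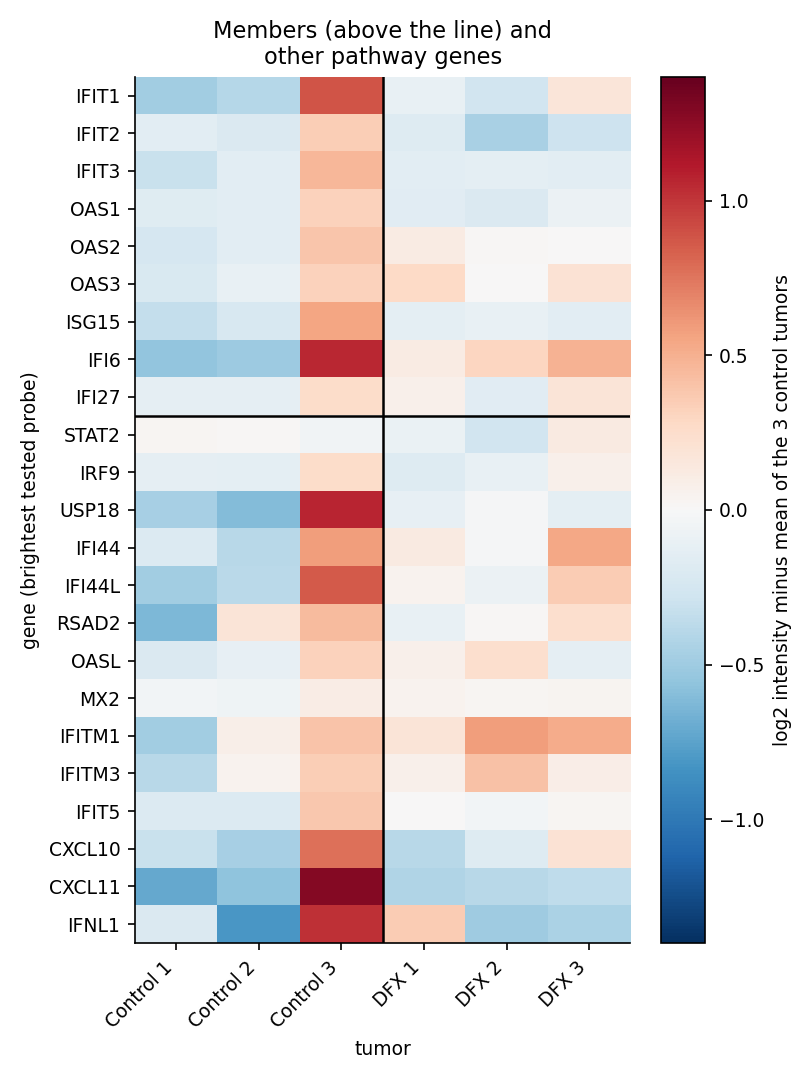
Log2 intensity minus the mean of the 3 control tumors (color scale) for the 9 tested members, above the line, and for other genes of the pathway, below it, in each of the 6 tumors. The column of Control 3 is red at all 9 members and pale at STAT2. IFIT5 is plotted as one of the closest genes to the member mean, and CXCL10, CXCL11 and IFNL1 were added after their values were seen.

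Genes were also ranked by the likeness of their pattern to the mean of the 9 members, by Pearson correlation over 6 tumors. The 5 closest genes outside the members were WDR3 (r = 0.996), IFIT5 (r = 0.994), PPPDE2 (r = 0.991), CHEK2 (r = 0.990) and MEX3A (r = 0.990). WDR3 acts in ribosome assembly and CHEK2 is a kinase of the DNA damage response. IFIT5, a further member of the IFIT family, was at 9.55, 9.55 and 10.13 in the control tumors and at 9.75, 9.70 and 9.77 in the DFX tumors. A correlation above 0.8 was found for 15 of the 56 other interferon-stimulated genes (26.8%) and for 5.11% of 23741 other genes. Their median correlations were 0.54 and 0.04. The single high tumor weighs heavily in each of these values.

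Markers of the cell types that the tumors could hold were read in the same tumors. The defining markers of human leukocytes CSF1R, CD163, FCGR3A and ITGAX were never well above background. Of 12 leukocyte markers 7 were tested, with 0 called. Their mean relative to the control mean was 0.21 in control replicate 3, against -0.03 and -0.18 in the other controls. It was 0.03 to 0.12 in the DFX tumors. Only 1 of the 7 tested markers was highest in control replicate 3. NKG7, among the 7, was well above background on 1 array only. It read 4.54, 4.36 and 2.13 in the DFX tumors against a control mean of 3.50, which raises the averages of DFX replicates 1 and 2 and lowers that of DFX replicate 3. The summed linear intensity of the 7 markers was 1992 to 2334 in the control tumors, 2108 in control replicate 3 and 2099 to 2473 in the DFX tumors. PTPRC, the pan-leukocyte antigen, was at 7.35 in control replicate 3 and at 7.71 in DFX replicate 3, against 6.48 to 6.65 in the other tumors. Of 5 markers of plasmacytoid dendritic cells, which release interferon, CLEC4C was never well above background, LILRA4 was so on 1 array, and IL3RA, GZMB and TCF4, which other cells also express, were so on all 6. The 4 tested averaged -0.40 in control replicate 3, and their sums were 378 to 569 in the control tumors and 386 to 570 in the DFX tumors.

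The 7 epithelial markers averaged -0.20 relative to the control mean in control replicate 3 and 0.22 to 0.29 in the DFX tumors, with EPCAM, KRT8 and KRT18 called higher. MUC1 carried most of the low value, at 11.55 in control replicate 3 against 13.11 and 13.34 in the other controls. Without MUC1 the mean of the other 6 was -0.05 there, and KRT7 was highest in that tumor. The summed intensity of all 7, MUC1 included, was 627330 to 629457 in the control tumors and 641271 to 655173 in the DFX tumors. The control sums lay close together, and the place of control replicate 3 as the lowest rests on MUC1, low in that tumor. KRT19, the brightest of the 7, read 18.54, 18.44 and 18.44 in the controls. The 6 tested fibroblast markers averaged -0.35 in control replicate 3, with sums of 13671 in that tumor, up to 22649 in the other controls and 12658 to 15634 in the DFX tumors. DCN went the other way, at 10.93, 11.45 and 12.07 in the controls, and was called lower by DFX with a log2 difference of -1.30, while LUM was called higher at 0.87. The 4 tested endothelial markers averaged 0.29 in control replicate 3 and 0.33 in DFX replicate 2, with sums of 482 to 947 in the control tumors and 556 to 599 in the DFX tumors. KDR, among them, was not well above background in any tumor. Its readings of 3.76 in control replicate 3 and 3.55 in DFX replicate 2, against a control mean of 3.03, raise both averages. PECAM1 was called higher, by 1.27 with its brightest probe. The other 3 went the other way without being called, VWF by -0.58, KDR by -0.29 and CDH5 by -0.09, and the list median was -0.19. The 3 tested red blood cell markers averaged -0.34 in control replicate 3 and summed to 5192 to 6742 in the control tumors against 1600 to 1721 in the DFX tumors, with HBA2 (-1.93) and HBD (-1.12) called lower. None of the calls among these markers passed after adjustment. Of all tested genes, 4.36% had a probe called higher and 6.3% a probe called lower. The part of cell composition in the member levels, and of mouse host RNA captured by human probes, was not tested.

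**Figure D4:**
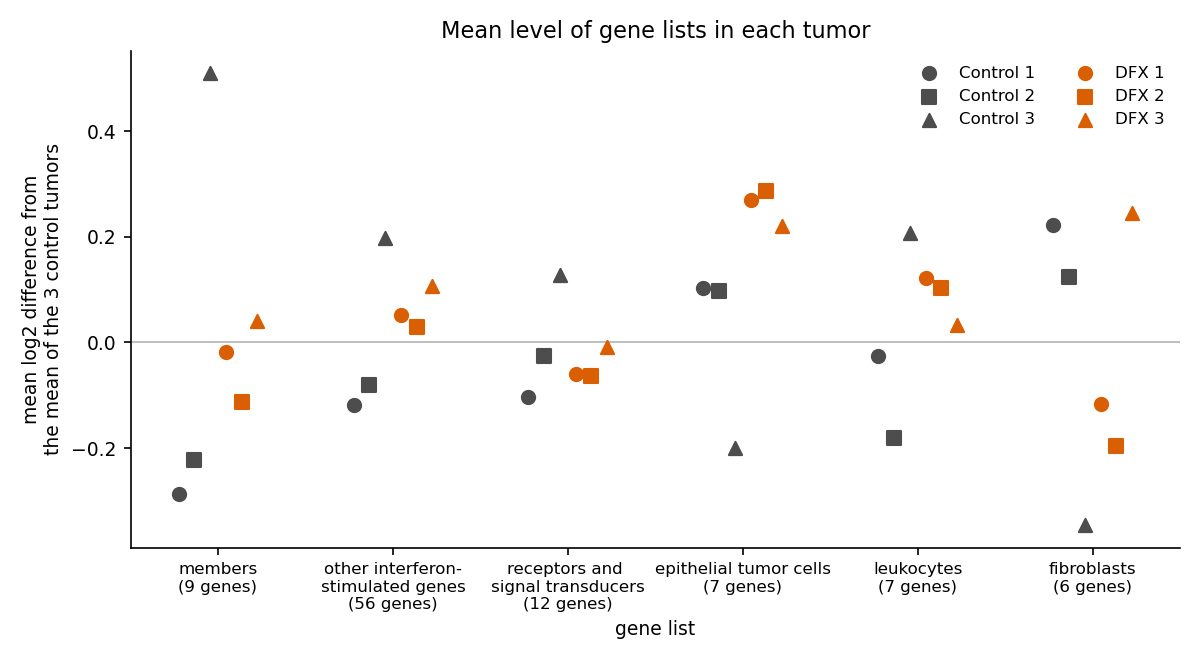
Mean log2 difference from the control mean (vertical axis) over the tested genes of 6 lists in each tumor, with gray symbols for control and orange symbols for DFX tumors. The members spread from -0.29 to 0.51 among the controls, while the epithelial and fibroblast lists have Control 3 as their lowest tumor.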

How the data were processed

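RNA from 6 tumors was measured on one-color Agilent arrays. Per the file headers and the labels, the authors deposited 1 scanner file per tumor from Agilent Feature Extraction (9.5.1.1 in the labels, 10.7.1.1 in the headers), holding background-subtracted and detrended spot intensity values, the p-value of a test of every spot's signal over background, and quality flags. They also deposited a table of quantile-normalized intensity values, which differed by a median of 0.185% from linear processed intensities quantile-normalized here, and not log2-transformed first.

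The processed intensities were log2-transformed and quantile-normalized, after the study's methods. Control probes and flagged outlier spots were left out, and spots of a probe were averaged. Probes were kept where the detection p-value was under 0.05 on all 6 arrays, which left 31807 of 50599. DFX was compared with control by limma 3.58.1 in R 4.3.3 (lmFit and eBayes, no covariate, Benjamini-Hochberg adjustment over all tested probes), with 2.04 prior degrees of freedom. The code was tested on simulated data. A call is an unadjusted p under 0.05, as in the methods, which name no test for the arrays. The labels do not say that the tumors came from separate mice, so the spread between them is taken as that between samples. Each p-value sets the group difference against this spread within the groups, and the number of arrays limits precision.

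The members and lists were chosen with earlier results of these data known. Named were all members, STAT2, IRF9, IRF7, USP18, IFI44, IFI44L, RSAD2, OASL, MX2, IFITM1 and IFITM3, pathway genes called with no overlap between the groups (at most 5 in each direction per list), and the 5 genes closest to the member mean, and 1 further pathway gene of this rule is not reported here. Alternatives were 75th percentile and median scaling, normexp (offset 50), the raw mean signal, the authors' table, other filters, other tests, the replicate block, array weights, the mean of a gene's probes and leaving out each tumor. Replicate numbers were not treated as pairs.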

Additional observations from a re-analysis of the deposited data

How the results depend on the processing

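With all 6 tumors, 0 member probes and 0 member genes were called under every alternative run, and the lowest limma p of a member among these was 0.0669, for IFIT2 with normexp background correction. With 1 tumor left out, member probes called and member genes called were 0 to 1 each, the 1 being IFI6 without control replicate 3. Members whose groups do not overlap were 0, but 3 after scaling to the median, 1 under normexp, 1 from raw mean signals and 0 to 8 with 1 tumor left out, the 8 without control replicate 3. Median scaling moved the median log2 difference of all probes to -0.10 and turned IFI27 to -0.0848 and OAS2 (A_33_P3225522) to -0.0763. The member median, -0.07, was -0.19 with median scaling, 0.09 with array weights (7 of 12 probes higher) and -0.23 to 0.15 with 1 tumor left out. Array weights turned IFIT1 to 0.10, IFIT2 (A_24_P304071) to 0.17 and OAS2 (A_23_P204087) to 0.0752. With 1 tumor left out, the log2 difference changed sign in 8 of the 12 member probes given one: IFI27 ranged from -0.0467 to 0.15, IFIT1 from -0.31 to 0.38, IFIT2 (A_24_P304071) from -0.20 to 0.25, IFIT3 from -0.30 to 0.0901, ISG15 from -0.29 to 0.15, OAS1 from -0.23 to 0.0103, and OAS2 from -0.29 to 0.30 (A_23_P204087) and from -0.0776 to 0.23 (A_33_P3225522). IFI6, at 0.30, ranged from 0.03 to 0.83, with the extremes without control replicates 1 and 3. Over all probes 2675 were called, and array weights called 3620. The Kruskal-Wallis H test called 4927, since it passes whenever groups do not overlap. The methods name that test for the in vivo experiments, without mention of the arrays. After adjustment 0 to 3 of all probes passed. The cause of these shifts was not tested.

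Replicate numbers in the labels were shared by both groups, but same-numbered tumors did not deviate together (r = 0.027, 0.027 and 0.016 over probes), so they were not taken as pairs. With the replicate block, 0 member probes and 0 member genes were called, and 2419 of all probes were called. Signals near background limit the dimmer OAS3 probe and MX1.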
